A study of Mus musculus with 2 samples.

Results

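The 9 genes described here encode ligands, receptors and partners of transforming growth factor beta (TGF-β) in the neonatal mouse heart. They were chosen by gene symbol out of the 31053 genes listed for each library: the ligands Tgfb1, Tgfb2 and Tgfb3, the latent TGF-β binding protein Ltbp1, the receptors Tgfbr1 and Tgfbr2, the co-receptors Tgfbr3 and Eng, and the TGF-β induced matrix protein Tgfbi. The study compared intact hearts at postnatal day (P) 1 and P7 by single cell RNA-seq of sorted live cells, with 1 library per age. Each library came from 3 hearts of one litter, minced and digested together with collagenase for 20 min at P1 and for 45 min at P7. No strain, genotype or treatment is given in the sample labels, and age was the only labelled difference between the groups. Age therefore cannot be told apart from litter, digestion time or sex, since Xist gave 57336 UMIs at P1 and 12 at P7 and 4 Y-linked genes gave 2 and 18039. With 1 library per age there was no replicate, and no test between ages was possible.

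TGF-β ligands are secreted as inactive complexes, in which the growth factor stays bound to its own propeptide and, through it, to a latent TGF-β binding protein that anchors it in the extracellular matrix. Once released, a ligand is bound by the type II receptor, which phosphorylates the type I receptor, and the type I receptor in turn phosphorylates Smad proteins that enter the nucleus. In the heart the pathway is known for endocardial and epicardial epithelial-to-mesenchymal transition, valve formation, vessel wall assembly and fibroblast activation.

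The promoters of Tgfb1 and Tgfb2, whose orders over the cell classes were nearly reversed, and of the endothelial gene Eng are shown first. Each sequence is the 150 bases before the transcription start in RefSeq on GRCm38.p6, on the strand of the gene, and promoters of 7 of the 9 members were matched, without Tgfb3 and Tgfbr3. The 3 windows shown end at the base before the annotated gene start in GENCODE M21 and so lie outside the gene. Capitals mark the GC box GGGCGG in Tgfb1, the TATA box TATAAA in Tgfb2 and the ETS-type motif AGGAAG in Eng, each searched on both strands.
Tgfb1, chr7:25686852-25687001, plus strand: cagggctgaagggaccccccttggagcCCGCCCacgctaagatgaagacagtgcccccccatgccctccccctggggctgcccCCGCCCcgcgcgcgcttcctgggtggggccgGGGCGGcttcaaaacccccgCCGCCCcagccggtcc
Tgfb2, chr1:186705990-186706139, minus strand: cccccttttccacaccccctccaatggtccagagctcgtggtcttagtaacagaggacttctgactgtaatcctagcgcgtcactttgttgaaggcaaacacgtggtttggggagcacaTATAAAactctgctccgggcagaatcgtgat
Eng, chr2:32646445-32646594, plus strand: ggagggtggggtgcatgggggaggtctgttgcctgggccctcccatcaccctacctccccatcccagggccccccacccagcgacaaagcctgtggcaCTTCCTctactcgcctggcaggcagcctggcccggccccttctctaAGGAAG
The Tgfb1 window held 4 GC boxes and no TATA box, with 76% G or C bases. The Tgfb2 window held 1 TATA box and no GC box, with 51.3% G or C, and the Eng window held 2 ETS-type motifs. Among 32851 promoter windows of this length, 28.6% held a GC box, 7.57% a TATA box and 19.7% the ETS-type motif, and a match describes the letters only.

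The libraries held 4991 cells at P1 and 8511 at P7 after filtering, with a median of 10875 and 10104 UMIs per cell (unique molecular identifiers, which mark each captured mRNA molecule so that copies are counted once), and 18 cell barcodes occurred in both. Cells were assigned to 8 classes by marker gates of at least 2 UMIs, except valve-type cells, which needed at least 1 UMI per marker. Endothelium was gated by Cdh5 without Npr3, endocardium by Cdh5 with Npr3, fibroblasts by Pdgfra, smooth muscle by Myh11, pericytes by Kcnj8, macrophages by Csf1r and epicardium by Upk3b, and valve-type cells by Fmod together with Scx. Gates within a class (Gja5, Prox1, Car4, Aplnr, Pi16, Gdf10, Lyve1 and Ccr2) also took at least 2 UMIs. Cells described as without such a gate gene, or without Npr3, had fewer than 2 UMIs of it. The classes held 1403 and 3132 endothelial, 217 and 68 endocardial, 911 and 1936 fibroblast, 209 and 101 valve-type, 131 and 369 smooth muscle, 181 and 329 pericyte, 198 and 197 macrophage, and 42 and 21 epicardial cells at P1 and P7. All 4 check markers not used for the gate of a class were detected in that class in both libraries. The pericyte gate also held fibroblast markers at a summed level of 5811 and 6743 CPM. In the epicardial and valve-type gates, where Pdgfra was allowed, they summed to 18294 and 17575 CPM and to 17330 and 29522 CPM. Fibroblasts themselves had 19774 and 31189 CPM. Kept cells with at least 2 UMIs of Ryr2 that met no other gate, taken as cardiomyocytes, numbered 14 at P1 and 5 at P7. The mitochondrial limit had removed 592 and 405 barcodes, whose cell types were not examined. Markers of lung-type cells (Foxf1, Hoxa5, Sftpc and Ager) summed to a higher level at P1 than at P7 in all 8 classes. Their sums, or the ratio without cells that had such a UMI, are given beside the called class ratios of members and some others. For the remaining class ratios their part was not tested.

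Levels are UMIs of a gene per 1000000 UMIs of the class (CPM), with exact Poisson 95% intervals that cover counting error only. The age difference is the log2 ratio of P1 over P7, positive where P1 was higher. A gene was called different when the ratio was at least 2-fold, its interval did not hold 0 and it had at least 20 UMIs over both libraries. In all cells, 1 of 9 members was called higher at P1 (Tgfbi), where 8.54% of 16552 genes were, and 0 were called higher at P7, where 3.83% of genes were. The median log2 ratio of the members was 0.19, beside 0.00 for all genes. Levels in all cells mix the classes, and fewer cells of a type cannot be told apart from less RNA per cell in such sums.

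Within classes, 66 of the 72 combinations of a member and a class had enough UMIs, and 5 of them were called higher at P1 and 1 higher at P7. In endothelium 2 of 9 members were higher at P1 (Ltbp1 and Tgfbi, background 3.99%) and 0 at P7 (3.67%). In endocardium 1 of 9 was higher at P1 (Tgfbr3, background 2.88%) and 0 at P7 (3.6%), and in smooth muscle 1 of 9 was higher at P1 (Tgfbi, 4.55%) and 0 at P7 (2.61%). In epicardium 1 of 6 was higher at P1 (Ltbp1, 4.31%) and 1 at P7 (Tgfb3, 3.88%). In fibroblasts 0 of 9 were called in either direction (backgrounds 5.44% at P1 and 4.25% at P7). The same count of 0 held in valve-type cells (3.36% and 2.36%) and pericytes (3.02% and 2.28%), and in macrophages for the 6 members with enough UMIs (2.61% and 5.01%). No class thus had more than 2 called members, and the map of ratios shows most of the remaining values within 2-fold.

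**Figure D1:**
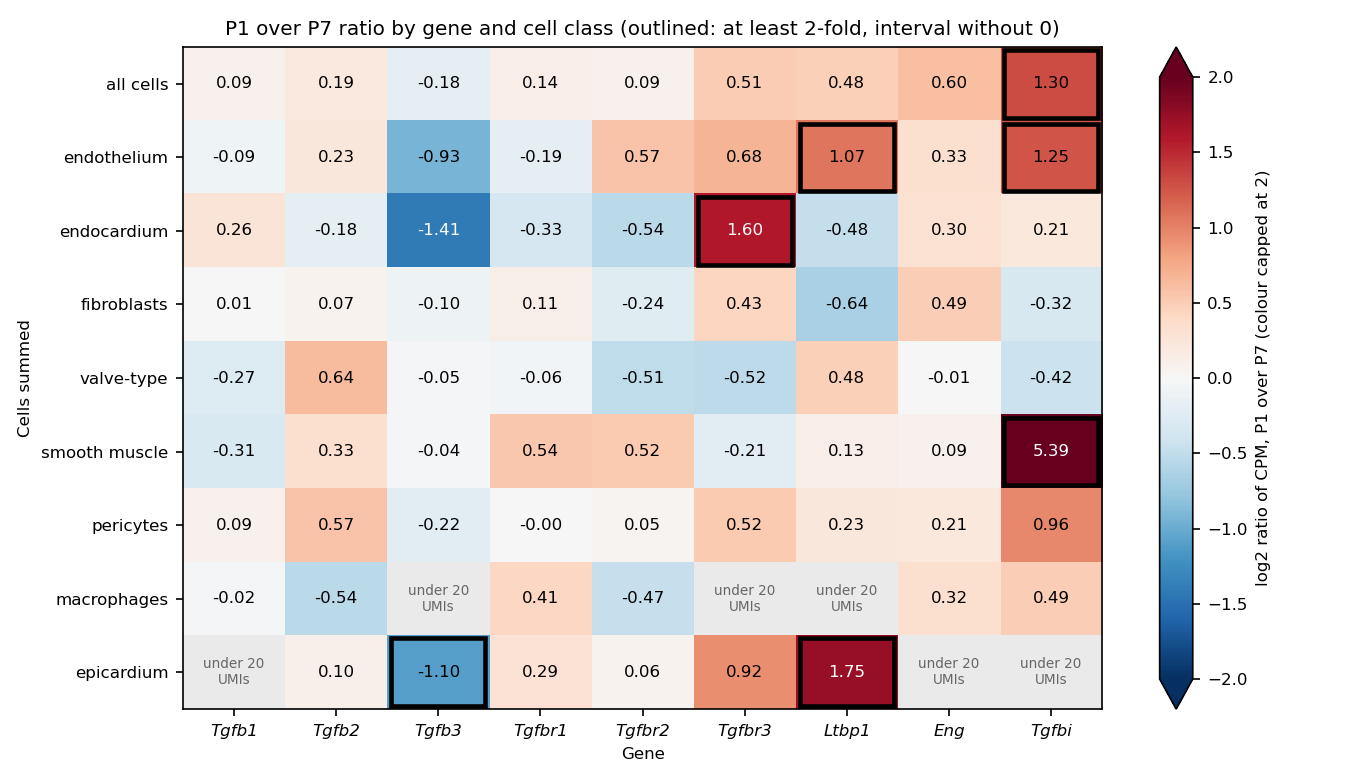
Log2 ratio of CPM, P1 over P7, for each of the 9 genes (columns) in all cells and in 8 cell classes (rows), with red for higher at P1 and blue for higher at P7. Black outlines mark called ratios: Tgfbi in all cells (1.30), endothelium (1.25) and smooth muscle (5.39), Ltbp1 in endothelium (1.07) and epicardium (1.75), Tgfbr3 in endocardium (1.60) and Tgfb3 in epicardium (-1.10). Grey cells had fewer than 20 UMIs.

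The ligands divided the heart between cell types. Tgfb1, the ligand known from platelets and immune cells, was at 372 CPM (95% interval 348 to 397) in P1 macrophages and 378 (353 to 405) in P7 macrophages. Endothelium was second, at 185 CPM at P1 and 197 at P7. Macrophages stood apart from every other class at both ages, whereas at P1 endothelium and endocardium (180 CPM) overlapped in their intervals. The lowest classes were smooth muscle, at 27.7 CPM at P1 and 34.6 at P7, and P1 epicardium, at 6.30 CPM from 4 UMIs. In all cells Tgfb1 was at 110 CPM at P1 and 103 CPM at P7. Endothelium, the larger class, held 45.8% of the Tgfb1 UMIs at P1 and 53.8% at P7, while macrophages held 13.7% and 8.17%. A Tgfb1 UMI was found in 87.9% of P1 macrophages and 92.9% of P7 macrophages, at median depths of 10756 and 10076 UMIs. By contrast it was found in 0 of 30 erythroid barcodes at P7, which allows a share of up to 10%, at a median of 7996 UMIs. Haemoglobin made up at least 50% of the UMIs of these barcodes, so their depth for other genes was lower. Thinned to 2000 UMIs per cell, the macrophage shares were 52.1% and 53.8%. In macrophages with Lyve1 Tgfb1 was at 320 and 268 CPM, and in those without it at 379 and 408 CPM. With Ccr2 it was at 388 and 486 CPM, and without Ccr2 at 357 and 323 CPM. The neutrophil genes S100a8, S100a9, Retnlg and Lcn2 summed to 4619 and 1519 CPM over all macrophages. Their part in the Tgfb1 level was not tested.

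Tgfb2, the ligand known for endocardial cushion and valve development, followed a nearly opposite order. Valve-type cells had 268 CPM (250 to 287) at P1 and 172 CPM (152 to 193) at P7. Smooth muscle had 231 and 185 CPM. These classes overlapped in their intervals at each age and lay above fibroblasts, at 112 and 107 CPM. Macrophages were at the bottom, at 3.75 and 5.51 CPM, and endothelium was next, at 23.4 and 20.0 CPM. Within endothelium, cells with Gja5, an arterial gene, had 33.3 and 98.3 CPM, from 13 and 115 UMIs. Their log2 ratio was -1.51 (-2.51 to -0.73), against 0.49 (0.28 to 0.69) in endothelial cells without Gja5. Cells with Prox1, a lymphatic gene, had 32.6 and 92.7 CPM, from 7 and 33 UMIs. The ratio there was -1.43 (-2.93 to -0.31), against 0.29 in endothelial cells without Prox1. The P1 to P7 difference in valve-type cells was 0.64 (0.44 to 0.84) on the log2 scale and in pericytes 0.57 (0.28 to 0.86), both under 2-fold. Lung-type markers summed to 56.5 and 1.21 CPM in the valve-type gate and to 61.8 and 13.8 CPM in the pericyte gate, and their part in these differences was not tested. In all cells Tgfb2 differed by 0.19, from 92.5 CPM at P1 to 81.2 CPM at P7. A Tgfb2 UMI was found in 86.6% of valve-type cells at P1 and 70.3% at P7, and after thinning in 37.9% and 18.0%. In macrophages, which serve as the background for this gene, the shares before thinning were 4.55% and 5.08%.

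Tgfb3 shared the mesenchymal side with Tgfb2. Smooth muscle had 77.6 and 80.1 CPM, and valve-type cells 72.1 and 74.4 CPM, with overlapping intervals between both classes and ages. At P1 fibroblasts followed, at 35.1 CPM. At P7 epicardium (70.6 CPM) came next and fibroblasts after it, at 37.8 CPM. Endothelium (3.18 and 6.08 CPM) and macrophages (1.67 and 1.38 CPM) were lowest. In epicardium Tgfb3 was called higher at P7, at 33.1 CPM (20.5 to 50.5) from 21 UMIs at P1 against 70.6 CPM (42.5 to 110) from 19 UMIs, with a log2 ratio of -1.10 (-2.06 to -0.12). The intervals of these levels overlapped, and the call was kept under 7 of 14 alternatives. The share of epicardial cells with a Tgfb3 UMI was 45.2% (19 of 42) at P1 and 52.4% (11 of 21) at P7, and lung-type markers summed to 157 and 26 CPM in this gate. Fibroblast markers summed to 18294 and 17575 CPM there, and their part in the Tgfb3 ratio was not tested. Without cells that had a lung-type UMI the ratio was -1.09 and no longer called, and without those that had a UMI of Foxf1 or Hoxa5, or 2 UMIs of Sftpc or Ager, it was -1.25 and called. Endothelial Tgfb3, with 51 and 167 UMIs, had a log2 ratio of -0.93 (-1.42 to -0.47) at levels near the bottom of its range.

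The share of each gene among the ligand UMIs of a class brings these orders together. The shares count 3′ tags of the 3 genes and compare classes, not amounts of protein. Tgfb1 made up 98.6% (95% interval 97.6 to 99.2, exact binomial) of ligand UMIs in P1 macrophages and 98.2% in P7 macrophages, and 87.4% and 88.3% in endothelium. Endocardium lay lower, at 67.7% (64.4 to 70.8) and 59.3% (52.6 to 65.8), with Tgfb2 giving 30.9% and 36.7%. In smooth muscle Tgfb1 made up only 8.24% at P1 and 11.6% at P7, and Tgfb2 68.7% (64.6 to 72.6) and 61.7% (58.8 to 64.5). Fibroblasts hardly differed between ages, with 59.9% and 57.9% Tgfb2, 21.3% and 21.5% Tgfb1, and 18.8% and 20.6% Tgfb3. In valve-type cells the Tgfb2 share was 69.1% (66.4 to 71.7) at P1 and 56.6% (52.1 to 61.0) at P7. The shares of both other ligands were larger at P7. Their levels had overlapping intervals between ages, at 47.8 and 57.4 CPM for Tgfb1 and 72.1 and 74.4 CPM for Tgfb3. Epicardium had only 56 and 43 ligand UMIs. At P1 Tgfb1 had the smallest share there, at 7.14% (1.98 to 17.3) from 4 UMIs. The P1 intervals of Tgfb2 (55.4%, 41.5 to 68.7) and Tgfb3 (37.5%, 24.9 to 51.5) overlapped. At P7 the intervals of all 3 ligands overlapped and left no order.

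**Figure D2:**
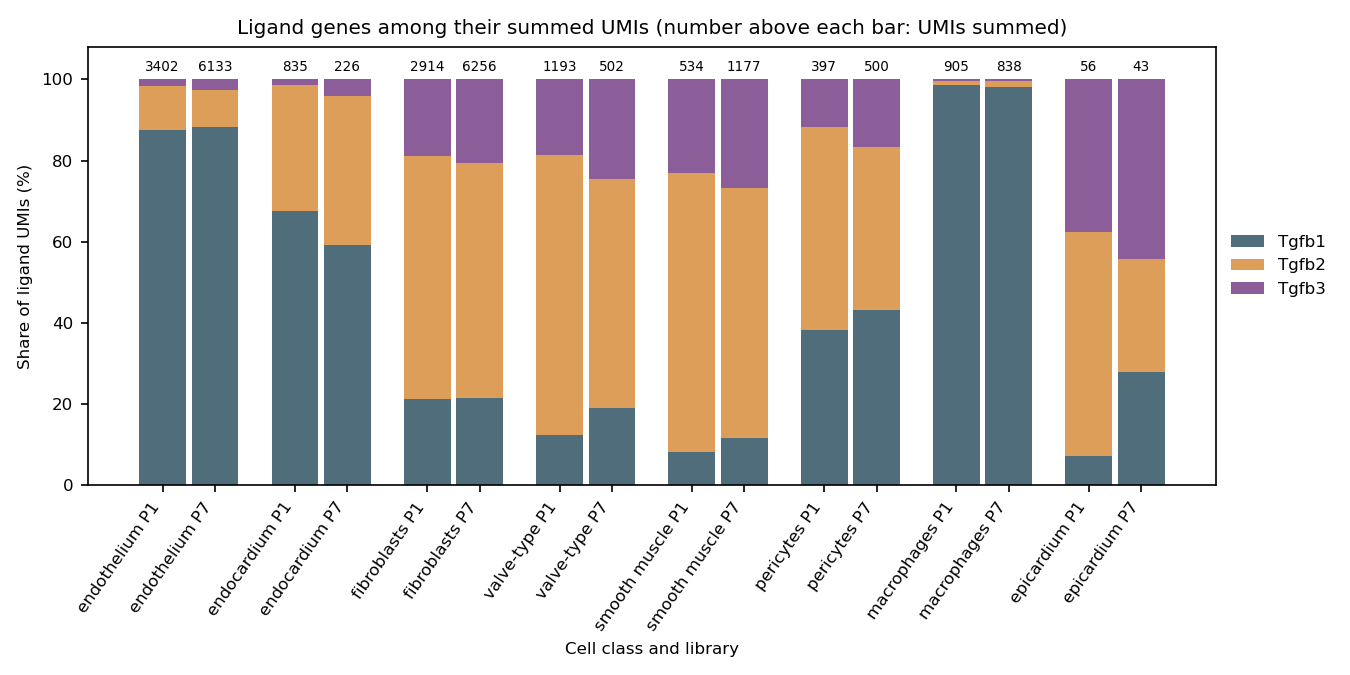
Share of Tgfb1, Tgfb2 and Tgfb3 (percent, stacked) among their summed UMIs in each of 8 cell classes, P1 beside P7, with the number of ligand UMIs above each bar. Tgfb1 fills almost the whole bar in macrophages (98.6% and 98.2%) and most of it in endothelium, whereas Tgfb2 is the largest part in fibroblasts, valve-type cells and smooth muscle at both ages.

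Ltbp1, which ties latent TGF-β to the matrix, was highest in endocardium, at 182 CPM (167 to 197) at P1 and 253 CPM (221 to 288) at P7. Valve-type cells (147 and 105 CPM) and smooth muscle (144 and 131 CPM) came next, with overlapping intervals. Macrophages were at the background, with 3 and 2 UMIs in all. Ltbp1 was thus high in valve-type cells and smooth muscle, the classes richest in Tgfb2, and also in endocardium. Fibroblasts and pericytes, which came next for Tgfb2 at P1 (112 and 105 CPM), had only 24.6 and 12.8 CPM of Ltbp1 there.

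Endothelial Ltbp1 was called higher at P1, at 57.5 CPM (53.9 to 61.4) against 27.4 CPM (25.5 to 29.5), with a log2 ratio of 1.07 (0.93 to 1.21). A UMI was found in 29.4% of P1 and 14.0% of P7 endothelial cells, at median depths of 10328 and 7778 UMIs, and after thinning in 8.90% and 4.40%. Macrophages, as background, had 1.52% and 1.02% of cells with a UMI. Within endothelium the values differed by gate: cells with Gja5, a gene of arterial endothelium (31 and 117 cells), had 66.6 and 78.6 CPM, with a ratio of -0.22 (-0.93 to 0.40). Cells with Aplnr, a gene of venous and capillary endothelium, had 58.5 and 22.3 CPM, a ratio of 1.39 (1.20 to 1.58). The remaining endothelial cells without Aplnr had 56.4 and 39.3 CPM, a ratio of 0.52 (0.31 to 0.73). Endocardial markers (Nfatc1, Adgrg6, Cytl1 and Vwf) in the endothelial gate summed to 107 CPM at P1 and 55.7 CPM at P7, beside 920 and 1171 CPM in endocardium, the class richest in Ltbp1, and their part in the endothelial result was not tested. In the endothelial gate Adgrg6 (7.17 and 0.947 CPM), Cytl1 (22.4 and 6.23 CPM) and Vwf (50.5 and 23.4 CPM) were lower at P7. Nfatc1 hardly differed between ages there, at 27.2 and 25.2 CPM. Lung-type markers summed to 73.3 CPM in P1 and 6.37 CPM in P7 endothelium, and the neutrophil genes S100a8, S100a9, Retnlg and Lcn2, added after the data had been seen, to 170 and 34.6 CPM. Without cells that had a lung-type UMI, the Ltbp1 ratio was 1.15.

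Epicardial Ltbp1 was also called higher at P1, at 67.7 CPM (49.0 to 91.2) from 43 UMIs against 18.6 CPM (6.03 to 43.3) from 5 UMIs, a log2 ratio of 1.75 (0.53 to 3.56). It was found in 17 of 42 P1 cells and 4 of 21 P7 cells, and the call was lost with each cell thinned (0.58) and with a gate of 1 UMI (0.37). Without cells that had a lung-type UMI, whose markers summed to 157 and 26 CPM in this gate, the ratio was 1.86. Fibroblast markers summed to 18294 and 17575 CPM in the epicardial gate, and their part in the Ltbp1 ratio was not tested. In fibroblasts the values lay the other way, at 24.6 and 38.4 CPM, with a ratio of -0.64 (-0.81 to -0.48), within 2-fold. The fibroblast ratio was similar in cells with Pi16, a gene of adventitial fibroblasts, at -0.58, and in cells without it, at -0.46. In endocardium it was -0.48 (-0.70 to -0.25), in valve-type cells 0.48 (0.23 to 0.74) and in smooth muscle 0.13 (-0.10 to 0.36). No common direction of Ltbp1 with age was seen across the classes.

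**Figure D3:**
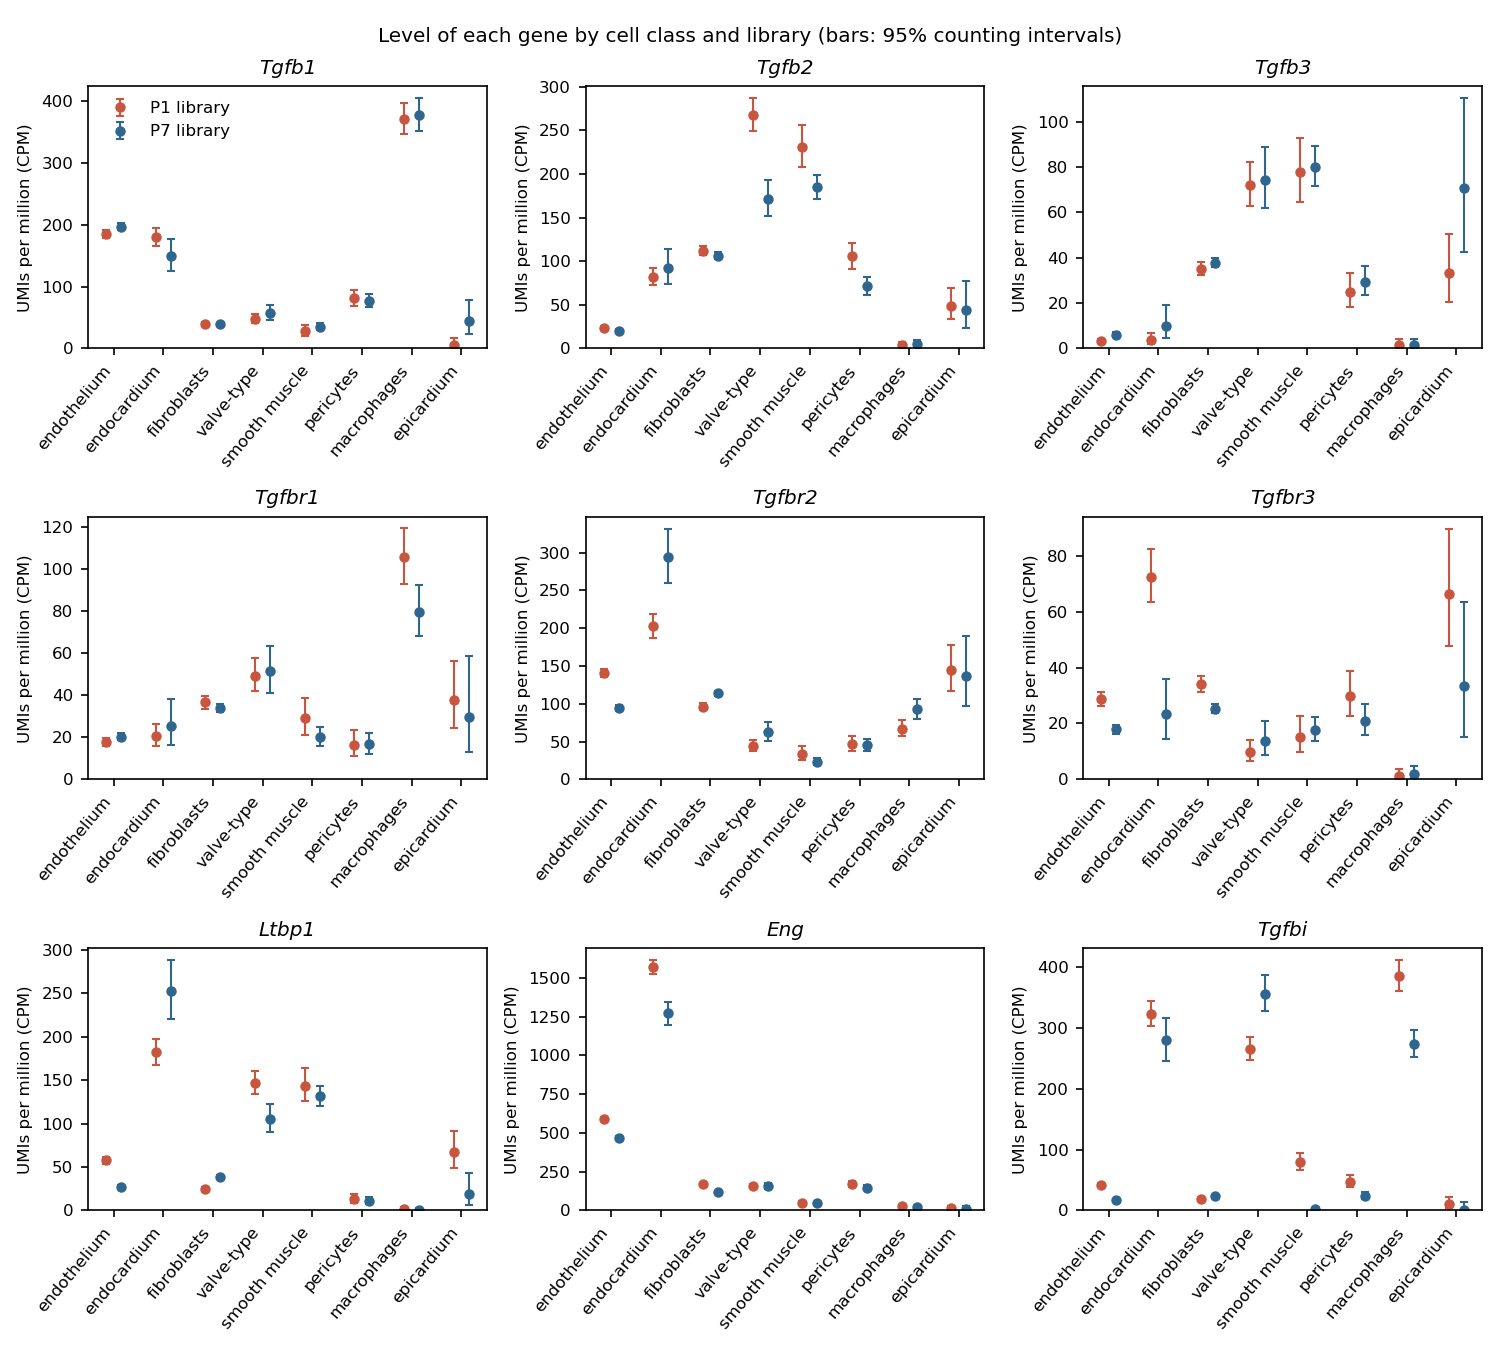
Level (CPM) of each of the 9 genes in 8 cell classes, with P1 in red and P7 in blue and vertical bars for exact Poisson 95% intervals; each panel has its own scale starting at 0, and heights cannot be compared between genes. Tgfb1 peaks in macrophages, Tgfb2 and Tgfb3 in valve-type cells and smooth muscle, and Eng, Tgfbr2 and Ltbp1 in endocardium at both ages.

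Among the signalling receptors, Tgfbr1, the type I receptor kinase, was highest in macrophages, at 105 CPM (92.9 to 119) at P1 and 79.5 CPM (68.1 to 92.2) at P7, then in valve-type cells, at 49.4 and 51.4 CPM. All other classes lay between 16.5 and 37.8 CPM at P1 and between 16.6 and 33.9 CPM at P7. The macrophage level differed by gate. Cells with Lyve1 (13 and 28 cells) had 40.5 CPM (20.2 to 72.4) and 49.4 CPM (31.3 to 74.1), not above valve-type cells. Those without Lyve1 had 114 and 87.7 CPM. The neutrophil genes summed to 4619 and 1519 CPM over all macrophages, and their part in the Tgfbr1 level was not tested. At P1 valve-type cells and fibroblasts (36.6 CPM, 33.7 to 39.7) stood above endothelium (17.7 CPM, 15.7 to 19.9) and pericytes, although direct neighbours in the order overlapped. In all cells Tgfbr1 was at 32.8 CPM at P1 and 29.8 CPM at P7.

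Tgfbr2, the type II receptor that binds the ligand, was highest in endocardium at both ages. Endocardium was at 203 CPM (187 to 219) at P1 and 294 CPM (260 to 332) at P7, epicardium at 145 and 137 CPM. Fibroblasts were at 96.4 CPM at P1, below endothelium, and at 114 CPM (110 to 117) at P7, above it. At P7 their interval overlapped that of epicardium (96.7 to 189). Smooth muscle was lowest, at 33.4 and 23.4 CPM. Smooth muscle, rich in Tgfb2 and Tgfb3, was thus the lowest of the 8 classes for Tgfbr2 at both ages, with intervals that overlapped those of valve-type cells and pericytes at P1 and stood apart from every class at P7. In endothelium it was at 141 CPM (135 to 147) at P1 against 94.4 CPM (90.8 to 98.1) at P7, with a ratio of 0.57 (0.49 to 0.66) on the log2 scale, and a UMI was found in 65.5% and 45.4% of cells. Thinned, these shares were 23.7% and 16.7%. Lung-type markers summed to 73.3 and 6.37 CPM in endothelium, and their part in the endothelial ratio was not tested. Endocardium had the opposite sign, at -0.54 (-0.75 to -0.32), as did valve-type cells, at -0.51 (-0.89 to -0.13), macrophages, at -0.47, and fibroblasts, at -0.24. None of these ratios reached 2-fold. Endothelial cells with Gja5 had 228 and 203 CPM of Tgfbr2, and those with Aplnr 119 and 78.5 CPM. The all-cell ratio of 0.09 combined these opposite values.

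The co-receptors present ligand to the kinase receptors. Tgfbr3, betaglycan, is known for the binding of TGF-β2, and was highest in endocardium (72.5 CPM, 63.4 to 82.5) and epicardium (66.1 CPM) at P1. In endocardium it was called higher at P1, with 228 UMIs in 217 cells against 21 UMIs in 68 cells, 72.5 against 23.4 CPM (14.5 to 35.7) and a log2 ratio of 1.60 (0.99 to 2.35). The share of endocardial cells with a UMI was 53.9% (47.0 to 60.7) at P1 and 23.5% (14.1 to 35.4) at P7, at median depths of 14141 and 11851 UMIs. Macrophages, as background, had 1.52% and 2.03%. After thinning, the endocardial shares were 16.6% and 1.47%. The 2 cells richest in Tgfbr3 held 17 of the P1 UMIs and 4 of the P7 UMIs, and the call was kept under 14 of 14 alternatives. Fibroblast markers in the endocardial gate summed to 1114 and 1947 CPM, and their part in the result was not tested. Lung-type markers summed to 36.2 and 2.23 CPM. Without cells that had a lung-type UMI the ratio was 1.65.

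Tgfbr3 had ratios above 0 in endothelium (0.68, 0.49 to 0.87) and fibroblasts (0.43, 0.27 to 0.59) as well, and in epicardium the interval held 0 (0.92, -0.07 to 2.21). Lung-type markers summed to 73.3 and 6.37 CPM in endothelium and to 22.2 and 1.41 CPM in fibroblasts. Their part in the endothelial and fibroblast ratios was not tested. In valve-type cells, where the gene was low, the levels were 9.75 and 13.9 CPM. At P7 no class from epicardium (33.4 CPM) down to valve-type cells was separated from its neighbour, and endocardium came after epicardium and fibroblasts there.

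Eng, endoglin, an endothelial co-receptor mutated in hereditary telangiectasia, had its highest level in endocardium, followed by endothelium. It was at 1568 CPM (1524 to 1612) in P1 endocardium and 1271 CPM (1199 to 1347) in P7 endocardium, and at 588 and 469 CPM in endothelium. The other classes lay well below endothelium, with pericytes at 169 and 146 CPM and fibroblasts at 168 and 120 CPM. Eng was found in 98.6% of P1 and in all 68 P7 endocardial cells, and in 92.8% and 90.7% of endothelial cells. It was also found in 756 of 911 and 1605 of 1936 fibroblasts and in 172 of 209 and 92 of 101 valve-type cells. Pericytes had a UMI in 131 of 181 and 215 of 329 cells, and smooth muscle in 53 of 131 and 132 of 369. In macrophages the shares were 21.2% and 17.8%, within the wide interval of the P7 erythroid barcodes used as background (6.67%, 0.82 to 22.1, 2 of 30), so Eng in macrophages could not be separated from background. In all cells the ratio was 0.60 (0.58 to 0.63), from 356 CPM at P1 to 234 CPM at P7, and with the class mix held equal between the libraries it was 0.35. The ratios within classes were smaller, at 0.33 in endothelium and 0.30 in endocardium, and largest in fibroblasts, at 0.49 (0.42 to 0.56). Endocardium, the class richest in Eng, made up 4.35% of P1 cells and 0.80% of P7 cells.

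Tgfbi, a secreted matrix protein named for its induction by TGF-β, differed most with age among the 9 genes in all cells. It was at 97.9 CPM (95.4 to 100) at P1 against 39.7 CPM (38.5 to 41.0) at P7, with a log2 ratio of 1.30 (1.24 to 1.36). Macrophages (385 and 273 CPM), endocardium (323 and 279 CPM) and valve-type cells (265 and 356 CPM) were the rich classes. Within these classes the ratios were 0.49 (0.34 to 0.64), 0.21 (0.01 to 0.41) and -0.42 (-0.58 to -0.27), all under 2-fold and the last towards P7. These classes made up a larger part of the P1 cells, macrophages 3.97% against 2.31%, endocardium 4.35% against 0.80% and valve-type cells 4.19% against 1.19%. With the class mix held equal the all-cell ratio was 0.65, below the call. Without cells that had a lung-type UMI it was 1.02, still called. Cells that met no gate held 18.8% of the Tgfbi UMIs at P1 and 15.3% at P7, at 105 and 35.9 CPM. At P1 the 2 richest of these 1483 cells held 228 of their 1085 Tgfbi UMIs, with 142 in 1 cell.

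Endothelial Tgfbi was called higher at P1, at 42.5 CPM (39.3 to 45.8) against 17.8 CPM (16.3 to 19.5), a log2 ratio of 1.25 (1.08 to 1.42) that was kept under 14 of 14 alternatives. A UMI was found in 16.3% of P1 and 5.36% of P7 endothelial cells, and in 0 of 32 P1 and 1.42% of P7 lymphocytes as background. The lymphocytes had median depths of 5140 and 5340 UMIs, below the 10328 and 7778 of endothelium. With only 32 P1 lymphocytes, a share above 0 is also allowed there. The 2 richest endothelial cells held 72 of 681 UMIs at P1 and 66 of 490 at P7. The level again differed by gate: cells with Gja5 had 0 and 3 UMIs in all, and cells with Prox1, a gene of lymphatic endothelium (15 and 25 cells), 116 and 202 CPM. Cells with Car4, a capillary gene, had 16 and 5.83 CPM, and endothelial cells without Car4 64.9 and 24.1 CPM. The ratio was 1.45 in the former and 1.43 in the latter, whereas in cells with Prox1 it was -0.78 (-1.52 to -0.12). Without cells that had a lung-type UMI the endothelial ratio was 1.20. The endocardial markers summed to 107 and 55.7 CPM in this gate. Adgrg6, Cytl1 and Vwf were lower at P7, whereas Nfatc1 hardly differed, at 27.2 and 25.2 CPM. The part of endocardial cells in the Tgfbi result was not tested.

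In smooth muscle the P1 library had 126 Tgfbi UMIs and the P7 library 7, which is 79.5 against 1.78 CPM with a log2 ratio of 5.39 (4.40 to 6.82). This ratio rested on few cells. Of 131 P1 cells, 13 had a Tgfbi UMI, and the richest pair held 104 of the 126 UMIs, with 70 and 34. Each of this pair had 5 UMIs of Myh11, and they had 7 and 3 UMIs of the valve-type markers, 3 and 0 of the lung-type markers and 1 and 0 of the neutrophil genes. At P7 only 2 of 369 cells had a UMI. Outside the richest pair 22 UMIs were left at P1 (14.0 CPM, 8.79 to 21.2), beside the 1.78 CPM (0.715 to 3.67) of all P7 cells. Neutrophil genes summed to 1310 CPM in P1 and 11.7 CPM in P7 smooth muscle and cardiomyocyte markers to 696 and 129 CPM, and their part in the difference was not tested. Lung-type markers summed to 26.5 and 7.63 CPM, and without cells that had a lung-type UMI the ratio was 4.16.

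In fibroblasts Tgfbi was low, at 19.0 CPM at P1 and 23.9 CPM at P7, with the exception of cells with Gdf10, which encodes a ligand of the same superfamily. Here it was at 33.8 CPM (24.2 to 46.1) at P1 against 210 CPM (187 to 235) at P7, with a log2 ratio of -2.62 (-3.15 to -2.15). The signal was spread over the gate: 43 of 77 P7 cells had a Tgfbi UMI (55.8%, 44.1 to 67.2), against 15 of 73 at P1 (20.5%, 12.0 to 31.6), and the 2 richest P7 cells held 35 of 296 UMIs. Fibroblasts without Gdf10 had 17.8 and 15.8 CPM. Genes of valve-type cells (Wif1, Sox9, Comp, Tnmd, Fmod and Scx) summed to 225 and 172 CPM in the Gdf10 cells. In the other fibroblasts they summed to 296 and 226 CPM. Sox9, among these genes, was at 277 and 220 CPM over all fibroblasts and at 294 and 316 CPM in valve-type cells. Wif1, Sox9, Comp and Tnmd together were at 282 and 221 CPM over all fibroblasts and at 484 and 1267 CPM in valve-type cells. A part of valve-type cells in the Gdf10 result was not tested. In macrophages Tgfbi was at 448 and 344 CPM in cells with Ccr2, a gene of monocyte-derived cells, and at 323 and 237 CPM in cells without it. The neutrophil genes summed to 4619 and 1519 CPM over all macrophages, and their part in these values was not tested. Epicardium had 7 UMIs at P1 and 0 in 21 cells at P7, which allows a share of up to 14.3% of cells.

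**Figure D4:**
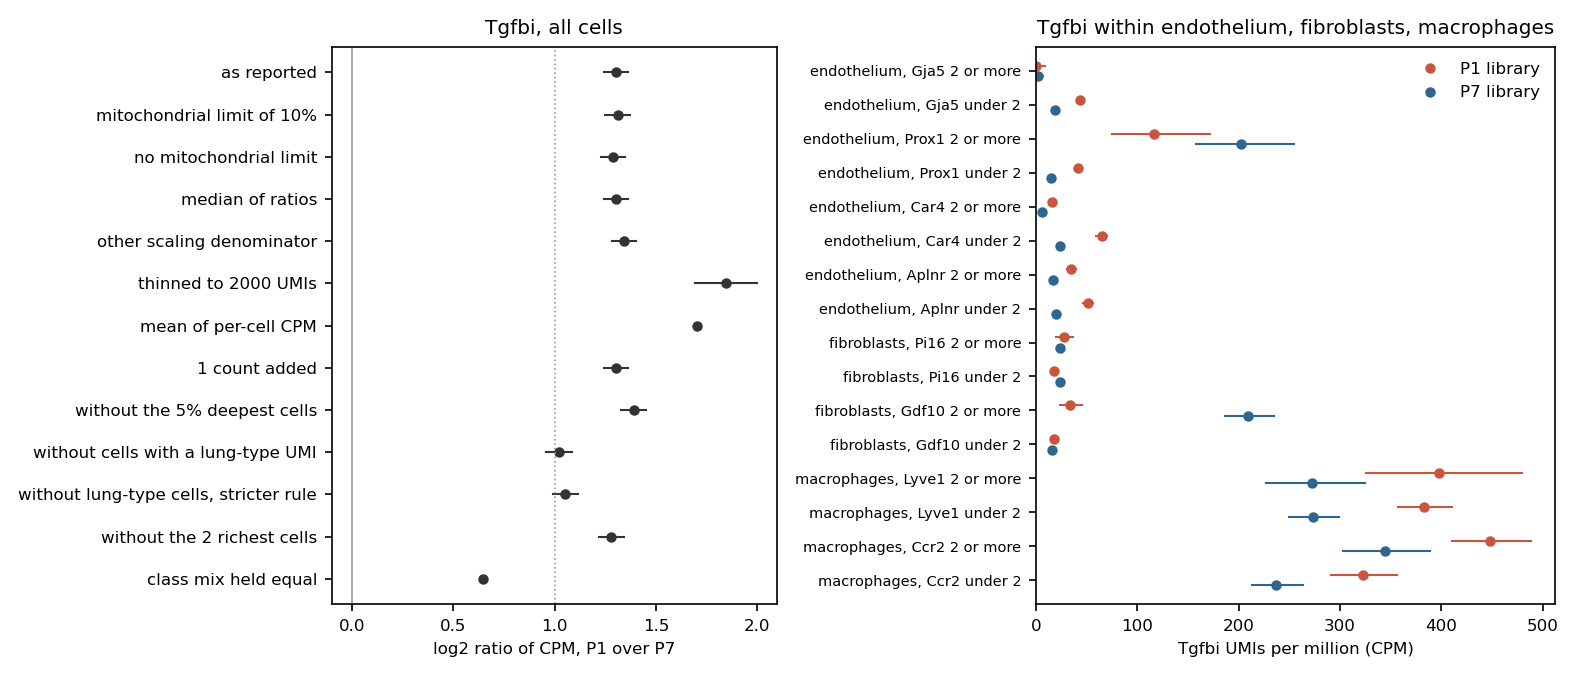
Left, log2 ratio of Tgfbi in all cells, P1 over P7, as reported and under 12 alternatives, with lines for 95% counting intervals where they can be computed; all points lie above 0, and with the class mix held equal the value is 0.65. Right, Tgfbi level (CPM, 95% intervals) in gates within endothelium, fibroblasts and macrophages, P1 in red and P7 in blue; P7 fibroblasts with Gdf10 stand out at 210 CPM beside 33.8 CPM at P1.

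The wider pathway was read from a list of 46 genes in 6 groups, of which 45 had at least 20 UMIs in all cells. Of these, 1 was called higher at P1, where 8.54% of all genes were, and 1 higher at P7, where 3.83% were. The median log2 ratio of the list was -0.14, beside 0.00 for all genes. None of 13 latency and activation genes, 6 further receptors, 5 Smads or 10 targets was called in all cells. The gene higher at P1 was Smad6, an inhibitory Smad that acts mainly on the bone morphogenetic protein branch, at 55.8 against 16.6 CPM and a log2 ratio of 1.75 (1.66 to 1.84). The gene higher at P7 was Dcn, a proteoglycan that binds TGF-β, at 3329 against 6681 CPM, just past the limit.

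**Figure D5:**
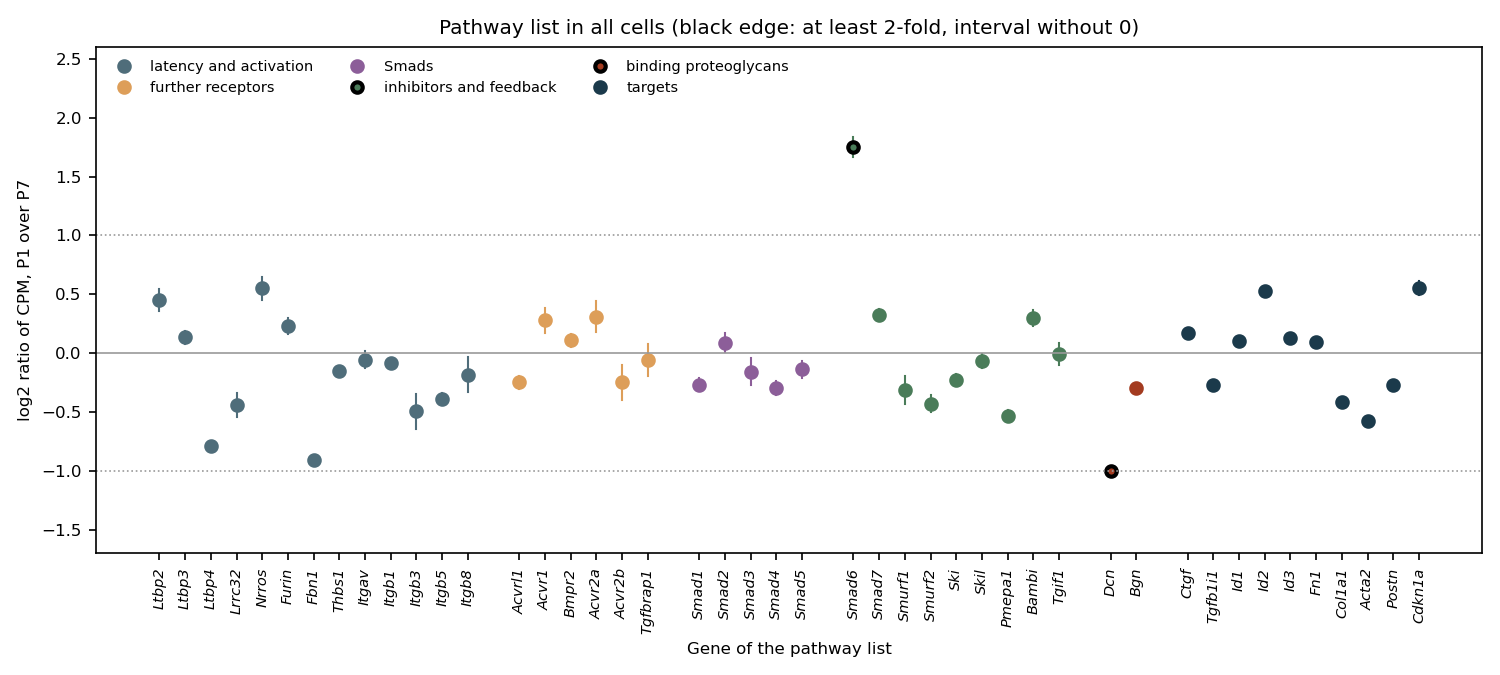
Log2 ratio of CPM in all cells, P1 over P7, for the 45 pathway genes with at least 20 UMIs, coloured by group, with lines for 95% counting intervals and dotted lines at 2-fold. Only Smad6 (1.75) and, on the line, Dcn reach 2-fold, marked by black edges.

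Within classes, Smad6 was called in 5 of the 8. It was higher at P1 in endothelium (56.6 against 23.9 CPM), fibroblasts (51.9 against 9.55 CPM), smooth muscle (22.7 against 3.56 CPM), pericytes (42.1 against 4.60 CPM) and macrophages (13.3 against 1.84 CPM, from 32 and 4 UMIs). In endocardium, its richest class, it was at 144 and 112 CPM, and in epicardium at 31.5 and 55.7 CPM from 20 and 15 UMIs. Lung-type markers summed to 73.3 and 6.37 CPM in endothelium, 22.2 and 1.41 CPM in fibroblasts and 61.8 and 13.8 CPM in pericytes. In smooth muscle they were at 26.5 and 7.63 CPM and in macrophages at 10.4 and 2.30 CPM. Their part in the Smad6 calls was not tested. Dcn, which fibroblasts release in large amounts, was called higher at P7 in endothelium, smooth muscle and macrophages; fibroblasts themselves had 6894 and 12512 CPM. Summed fibroblast markers, Dcn among them, were at 400 and 833 CPM in endothelium, at 118 and 1056 CPM in macrophages and, with the opposite direction, at 2100 and 1416 CPM in smooth muscle, and their part in the calls of these classes was not tested.

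By class, the list had 8 genes higher at P1 and 2 at P7 in smooth muscle, 2 and 10 in macrophages, 2 and 2 in fibroblasts, 2 and 2 in endothelium, 3 and 0 in pericytes, 0 and 5 in epicardium, 0 and 2 in endocardium and 0 and 0 in valve-type cells. In smooth muscle 43 list genes were tested, where 4.55% of all genes were higher at P1 and 2.61% at P7, and in macrophages 37, where 2.61% and 5.01% were. In the other classes between 31 and 45 list genes were tested, against the backgrounds given above. The 2 proteoglycans of the list were among the 10 genes higher at P7 in macrophages, where fibroblast markers summed to 118 and 1056 CPM. In smooth muscle, neutrophil genes summed to 1310 and 11.7 CPM and cardiomyocyte markers to 696 and 129 CPM. The part of these markers' cells in the counts was not tested. The median ratio of the list was 0.19 in smooth muscle, beside 0.01 for all genes, and -0.23 in fibroblasts, beside 0.03. The endothelial calls, chosen for mention after their values were seen, were Smad6 and Cdkn1a (123 against 51.0 CPM) at P1 and Ltbp4 (184 against 421 CPM) and Dcn at P7. Endothelial Ltbp4, a latent TGF-β binding protein of elastic fibres, was thus called in the direction opposite to Ltbp1. Ltbp4 was also called higher at P7 in endocardium, at 222 against 614 CPM, where Ltbp1 stayed within 2-fold. Fibroblast markers summed to 400 and 833 CPM in endothelium and to 1114 and 1947 CPM in endocardium. Their part in the Ltbp4 calls was not tested.

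Genes with the most similar pattern were sought for each member over the 16 profiles of 8 classes at both ages, among 3532 genes. The correlations describe these profiles, which share libraries and depth. Tgfb1 was most like Arpc3 (Pearson r = 0.95), Necap2 and Sdcbp, and Tgfb2 most like Zbtb38 (0.93), Shisa4 and Fat1. Tgfb3 was most like Vasn (0.93), Fxyd1 and Hmgn1. Among the receptors, Tgfbr1 was closest to Csf2ra (0.91), Reep5 and S100a4, Tgfbr2 to Piezo1 (0.95), Cast and Thbd, and Tgfbr3 to Pttg1ip (0.92), Tax1bp1 and Cdkn1c. Eng was closest to Acer2 (0.93), Dennd5b and Itga5. Ltbp1 (Nxn, 0.87, Bmp6 and Usp34) and Tgfbi (Ctsh, 0.85, Bmyc and Akr1a1) had the least similar partners.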

How the data were processed

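Live cells of P1 and P7 mouse hearts were profiled with 3′ single cell kits, 1 library per age. Cell Ranger 3.1.0 with the mm10 genome was used by the authors, who deposited UMI counts per gene and barcode without normalisation (7836 and 9077 barcodes, 63585504 and 98346195 UMIs). From these counts, cells with 200 to 8000 genes and at most 20% mitochondrial UMIs were kept (python 3.11.15, numpy 2.4.6, scipy 1.17.1, pandas 2.3.3), no doublet caller was run, and cells meeting 2 unrelated gates (216 and 387) were left out of the classes. UMIs were summed per class and library, and ratios were taken with 0.5 counts added and exact conditional binomial 95% intervals. Shares have exact Clopper-Pearson intervals. All intervals and floors (3 counts) cover counting error only. Thinning to 2000 UMIs left out 574 and 727 cells. The likeness of genes was the Pearson correlation of log2(CPM + 10) among genes reaching 100 CPM in a class and 200 UMIs in all, without the class markers. The ratio calculation was also run on counts simulated with Poisson error only, which hold no variation between cells or libraries and so cannot show that error. The members, taken by symbol, and the gates, lists and alternatives were chosen with earlier results of these data known. The genes named are the members, up to 3 called genes with the largest all-cell ratio in each pathway group, and the 3 genes most like each member. Ltbp4 and Cdkn1a were added after their values were seen. 1 gene of the pathway list is not reported here and was left out of its counts. Promoters were taken from RefSeq on GRCm38.p6.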

Additional observations from a re-analysis of the deposited data

Results flagged for a closer look

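For 2 genes the age difference had opposite signs in different cell classes, with ratios of at least 0.5 on the log2 scale each way and counting intervals that did not hold 0, which is why they are listed. Tgfbr2 had a log2 ratio of P1 over P7 of 0.57 (0.49 to 0.66) in endothelium, -0.54 (-0.75 to -0.32) in endocardium and -0.51 (-0.89 to -0.13) in valve-type cells. Ltbp1 had a ratio of 1.07 (0.93 to 1.21) in endothelium and 1.75 (0.53 to 3.56) in epicardium, and -0.64 (-0.81 to -0.48) in fibroblasts. The difference between classes was not tested, since each class had 1 library per age. No group had enough libraries for a search for samples that stand apart.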

How the results depend on the processing

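No direction of a called ratio turned under any of 14 alternatives within classes or 12 in all cells. In all cells, 1 member was called higher at P1; there were 2 with a limit of 1.5-fold and 0 with the class mix held equal, where Tgfbi was at 0.65. Of combinations of a member and a class, 5 were called higher at P1, and 8 with a limit of 1.5-fold. The 1 combination called higher at P7 became 2 with a mitochondrial limit of 10%, with no minimum of UMIs, with gates of 3 UMIs or with cells meeting 2 gates counted in each, 3 with a limit of 1.5-fold, 4 with the mean of per-cell CPM, and 0 with scaling by the median of ratios or without the 5% deepest cells. The pathway list had 2 genes higher at P1 with no minimum of UMIs, instead of 1. Endothelial Ltbp1 was kept under 12 of 14 alternatives, at 1.00 without the 5% deepest cells and 0.95 with cells of 2 gates included. Epicardial Ltbp1 was kept under 12 of 14, at 0.58 after thinning and 0.37 with gates of 1 UMI, and epicardial Tgfb3 under 7 of 14. The all-cell ratio of Tgfb1 lay between -0.12 and 0.13 and so had no fixed sign. The removal of cells with a UMI of Foxf1 or Hoxa5, or 2 UMIs of Sftpc or Ager (Tgfbi in all cells at 1.05) and of the 2 richest cells was added after the data had been seen. Except where stated, the cause was not tested. Epicardium had 42 and 21 cells, and its intervals are wide. No paired analysis was possible because each age had 1 library.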
